A study of Danio rerio with 18 samples.

Results

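Zebrafish larvae raised sterile until 3 days post fertilization (DPF) were colonized either by a complex microbial community or by a single bacterial species, and the RNA of the whole larvae was compared at 5 DPF. The comparison rests on 6 of the 18 libraries of the series, chosen by their labels: 3 libraries of conventionalized (CONVD) wildtype (WT) larvae and 3 of WT larvae mono-associated with *Exiguobacterium* ZWU0009 (Exi). The other 12 libraries are 3 each of germ-free (GF) WT larvae, WT larvae mono-associated with *Chryseobacterium* ZOR0023, and GF and CONVD *myd88* mutants, and here they entered the fit that estimates the spread between pools. The 3 GF WT libraries also give a reference level. Each library was made from a pool of 15 larvae.

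CONVD larvae were exposed from 3 DPF to diluted water in which conventionally reared larvae had been kept, a community that was not characterized. Exi larvae were kept from 3 to 5 DPF in water with *Exiguobacterium*, a Gram-positive bacterium of the Firmicutes that was isolated from zebrafish. By the methods of the study the bacterial density in the water also differed between the groups, and the labels and the methods give different optical densities for the *Exiguobacterium* suspension. Dose, number of species and identity of the species therefore cannot be told apart. The labels call the pools biological replicates and do not say whether each had its own cross or dish, so a p-value here reflects the spread between pools within the 6 groups, which may be technical. The counts hold no bacterial genes, so the labelled colonization was not checked here. All 9 pools of CONVD, Exi and GF larvae held the muscle transcripts of a whole larva, with 99888 to 108358 CPM, the read count scaled to an equal library size, summed over 72 sarcomere genes.

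Immediate early genes are transcribed within minutes of a stimulus and mostly encode transcription factors, among them the Fos, Jun and Egr families. Fos, Jun, Atf and Batf proteins pair up to form activating protein-1 (AP1), which in zebrafish as in mammals is switched on by growth factors, stress and innate immune receptors. The same stimuli induce inhibitors of the pathway, such as the dual specificity phosphatases (Dusp), which inactivate mitogen-activated protein (MAP) kinases, and the suppressors of cytokine signaling (Socs).

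Most of the genes that differed were lower in CONVD than in Exi larvae, among them 12 of 31 immediate early genes tested, 6 of 15 AP1 subunits and 4 of 18 suppressors of cytokine and MAP kinase signaling. Genes are counted by entry, and the symbols *egr2a* and *fosab* each stand for 2 of the called entries. Of 23367 genes tested, 60 were called different (0.257%), of which 56 were lower in CONVD (0.24%) and 4 were higher (0.0171%). A gene was called at an adjusted p (Benjamini-Hochberg, over all genes tested) below 0.05 in edgeR's quasi-likelihood test together with a fitted difference of 1.3-fold or more, and the log2 fold changes given here are CONVD minus Exi. In 59 of the 60 genes the 3 CONVD pools did not overlap the 3 Exi pools, against 12.4% of all genes tested, and 20 differed by at least 2-fold. The calls come from these same pools, so the lack of overlap is not separate support for them. Over all genes tested the median log2 fold change was -0.0042, near 0. The count depended on the libraries that set the spread: edgeR called 27 genes with the 12 WT libraries, all of them lower in CONVD and among the 60, and 39 with the 6 libraries alone, 31 of them among the 60. After thinning to the smallest total it called 34, of which 32 were among the 60. Leaving out a pool of the comparison gave 24 genes without CONVD 2, 26 without Exi 3, 32 without Exi 1, 40 without CONVD 3, 56 without CONVD 1 and 78 without Exi 2. Of these, 24, 24, 29, 36, 45 and 52, in the same order, were among the 60. The call held in 13 of the 60 genes under each of the 17 other settings tried for single genes, and in 20 with each of the 6 pools left out in turn. No called gene changed direction under these settings.

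**Figure D1:**
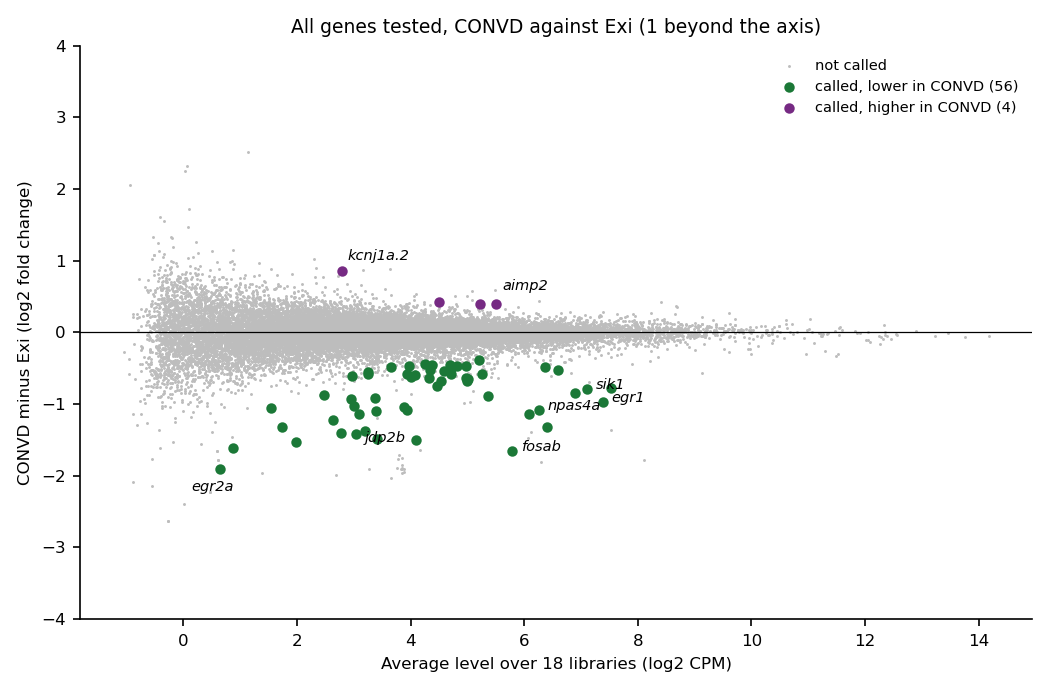
Log2 fold change, CONVD minus Exi, of each of the 23367 genes tested (y axis) against its average level over the 18 libraries in log2 CPM (x axis), with 1 gene beyond the axis. Green points are the 56 genes called lower in CONVD, purple points the 4 called higher and grey points those not called. The 56 lower genes lie between -1.91 and -0.38.

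Total counts were 11787698 to 23600976 in the CONVD libraries, 8057429 to 14578628 in the Exi libraries and 7946202 to 10999402 in the GF libraries. In a principal component analysis of the 6 libraries the first component (29.9% of the variance) set Exi 1 apart and the second (24.1%) ran from Exi 2 to CONVD 1. There were 23 uncalled genes with an average log2 CPM of 1 or more and an estimate 2-fold or more lower in CONVD. Of these, 22 were highest in Exi 1. A large estimate that fails the test favours genes high in 1 pool. The genes are also not independent, since 6 of the 23 carry the symbol *otud4* and 7 a symbol that begins with si:dkeyp-3b12. The highest of the 22, *zgc:158463*, stood at 123, 179 and 109.7 CPM in CONVD pools 1, 2 and 3 and 1080.4, 114 and 225 CPM in Exi pools 1, 2 and 3, and at 389, 128 and 80.2 CPM in GF pools 1, 2 and 3.

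Of 15 AP1 subunits tested, 6 were called lower in CONVD than in Exi larvae and none higher. The median log2 fold change of the 15 was -0.55, and 14 of the 15 estimates were below 0. The 2 entries that carry the symbol *fosab*, a Fos subunit and a classical immediate early gene, gave the largest changes. One of them (ENSDARG00000031683) stood at 49.0, 29.0 and 36.6 CPM in CONVD pools 1, 2 and 3 and 125, 99.7 and 129.5 CPM in Exi pools 1, 2 and 3. The highest CONVD pool was thus well below the lowest Exi pool. The mean levels were 38.2 ± 10.08 and 118 ± 16.1 CPM (SD, n = 3 pools each), and the fitted difference was 3.16-fold (log2 fold change -1.66, standard error 0.16, adjusted p = 3.7e-04). The second entry (ENSDARG00000097234) stood at 15.0, 10.26 and 13.8 CPM in CONVD pools 1, 2 and 3 and 38.7, 30.0 and 39.5 CPM in Exi pools 1, 2 and 3, again without overlap, and differed by 2.84-fold (log2 fold change -1.51, standard error 0.14, adjusted p = 3.3e-06). Reads of near-identical copies can be divided between such entries, so they are not independent measurements.

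*jdp2b*, which encodes a partner of AP1 that represses transcription in mammals, stood at 4.51, 4.30 and 4.05 CPM in CONVD pools 1, 2 and 3 and 13.3, 8.93 and 11.9 CPM in Exi pools 1, 2 and 3. The 3 CONVD pools lay close together and each Exi pool lay well above them, a difference of 2.68-fold (log2 fold change -1.42, standard error 0.14, adjusted p = 3.8e-07). *fosl1a* encodes Fra-1, a Fos subunit without the activation domain of Fos. It stood at 2.47, 2.59 and 2.75 CPM in CONVD pools 1, 2 and 3 and 8.11, 5.26 and 7.20 CPM in Exi pools 1, 2 and 3, with no overlap and a 2.64-fold difference (log2 fold change -1.40, standard error 0.21, adjusted p = 8.7e-04). *batf*, an AP1 subunit of leukocytes in mammals, stood at 7.06, 6.05 and 6.69 CPM in CONVD pools 1, 2 and 3 and 16.1, 10.6 and 14.7 CPM in Exi pools 1, 2 and 3, a 2.13-fold difference (log2 fold change -1.09, standard error 0.13, adjusted p = 1.8e-05). *junbb*, a JunB subunit, stood at 47.5, 31.5 and 35.3 CPM in CONVD pools 1, 2 and 3 and 69.0, 62.7 and 75.4 CPM in Exi pools 1, 2 and 3, and its pools did not overlap either (log2 fold change -0.89, standard error 0.16, adjusted p = 0.035). The junbb call was the least stable of the 6: it was lost without CONVD 2, CONVD 3, Exi 1 or Exi 3 (adjusted p 0.13 to 0.21), and with the 12 WT libraries (adjusted p = 0.32). The other 5 kept the call with each pool left out. The first *fosab* entry lost it in edgeR with the 6 libraries alone (estimate -1.65, adjusted p = 0.21), but not in DESeq2 on the same libraries. *fosl1a* lost it after thinning to the smallest total (estimate -0.99, adjusted p = 0.22).

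The remaining subunits did not pass the test. For *fosb*, *junba*, *fosaa* and *atf3* the estimates were -0.69, -0.55, -0.48 and -0.44 (adjusted p = 0.16, 0.18, 0.16 and 0.16). In each of these 4 genes the CONVD pools lay below the Exi pools. That held for 12 of the 15 subunits, the 6 called ones included, and for 6.68% of all genes tested. The 95% interval of the log2 fold change was -0.39 to -0.07 for *jund*, -0.36 to -0.08 for *fosl2*, -0.25 to 0.05 for *jun* and -0.25 to 0.59 for *jdp2a*, so a 2-fold difference lay outside each of these 4 intervals.

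**Figure D2:**
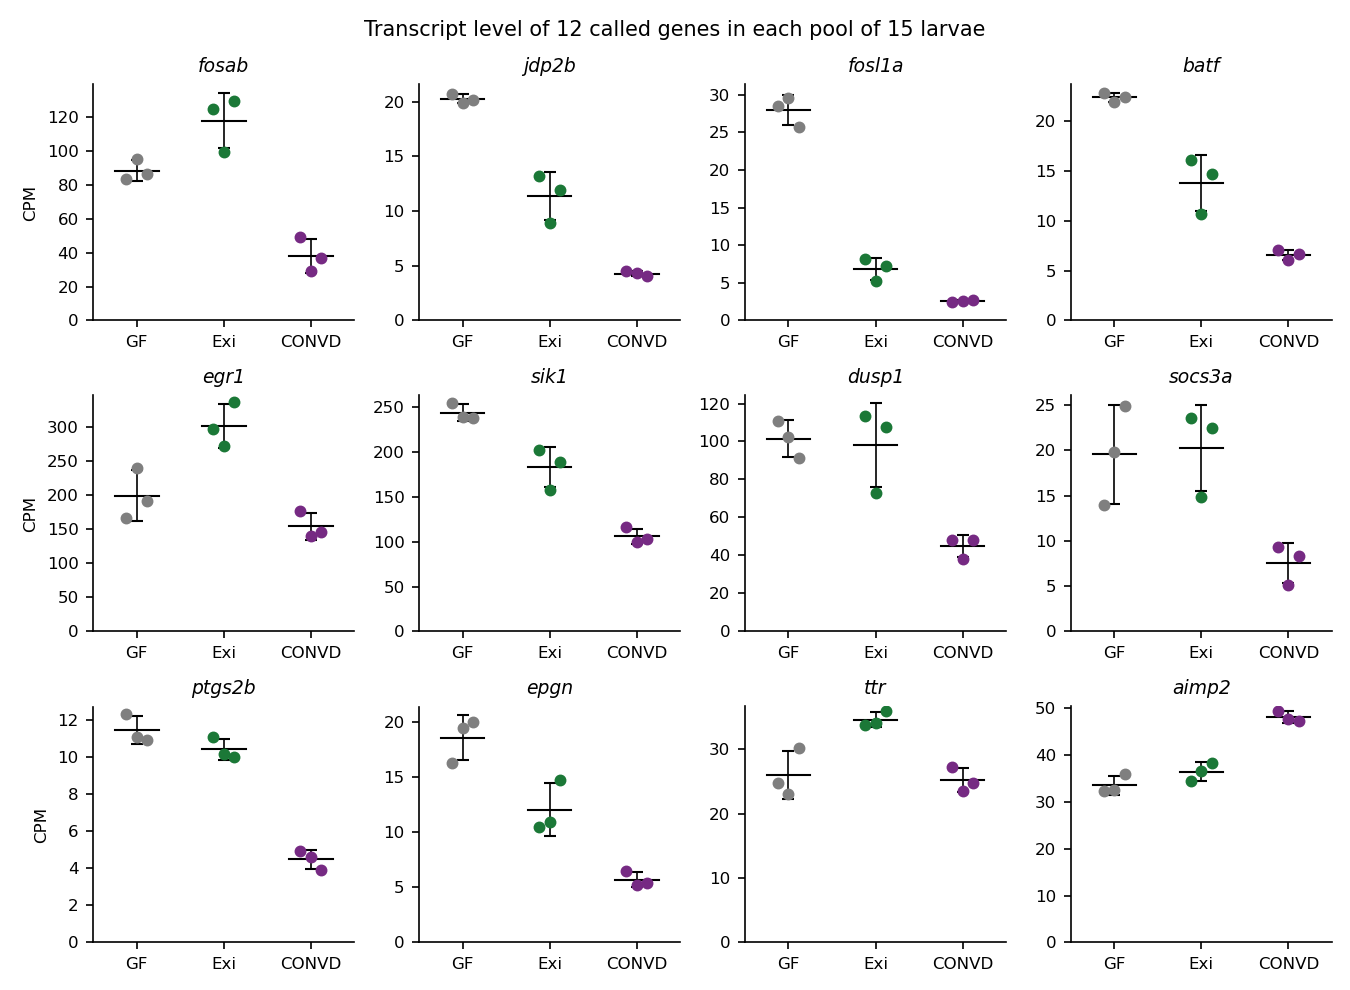
Level in CPM (y axis, from 0) of 12 called genes in the 3 GF (grey), 3 Exi (green) and 3 CONVD (purple) pools, with points for pools, a bar for the mean and whiskers for the SD. The *fosab* panel shows ENSDARG00000031683 and the *socs3a* panel ENSDARG00000025428. In each panel the CONVD points lie apart from the Exi points, below them in 11 genes and above them in *aimp2*.

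Of 31 immediate early genes outside the AP1 family, 12 were called lower in CONVD larvae and none higher, with a median log2 fold change of -0.24 over the list. The largest estimates belonged to the 2 entries with the symbol *egr2a*, a zinc finger factor of the Egr family. Both were low in reads. ENSDARG00000098502 had 8 to 21 reads in the CONVD pools and 15 to 50 in the Exi pools, and stood at 0.851, 0.876 and 0.432 CPM in CONVD pools 1, 2 and 3 and 2.52, 1.83 and 3.46 CPM in Exi pools 1, 2 and 3 (log2 fold change -1.91, standard error 0.32, adjusted p = 0.0023). The other entry (ENSDARG00000044098) stood at 1.62, 1.21 and 0.702 CPM in CONVD pools 1, 2 and 3 and 4.601, 2.201 and 3.53 CPM in Exi pools 1, 2 and 3 (log2 fold change -1.61, standard error 0.27, adjusted p = 0.0023). The call of ENSDARG00000098502 was lost without Exi 3 (adjusted p = 0.15) and after thinning to the smallest total (adjusted p = 0.16). Shared reads between these entries are again possible.

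*btg2*, which slows cell division and is also a target of p53, stood at 63.1, 42.0 and 50.7 CPM in CONVD pools 1, 2 and 3 and 146, 94.9 and 142 CPM in Exi pools 1, 2 and 3. All 3 Exi pools lay above all 3 CONVD pools, a 2.50-fold difference (log2 fold change -1.32, standard error 0.17, adjusted p = 0.0052). It was not called by edgeR with the 12 WT libraries (adjusted p = 0.055) or with the 6 libraries alone (adjusted p = 0.34), while DESeq2 on the 6 libraries called it. *sik1*, a salt-inducible kinase that restrains cyclic AMP signaling, stood at 116, 100.1 and 103 CPM in CONVD pools 1, 2 and 3 and 202, 158 and 189 CPM in Exi pools 1, 2 and 3. It was 1.73-fold lower in CONVD (log2 fold change -0.79, standard error 0.08, adjusted p = 2.8e-06) and was called under every setting tried. *cyr61*, which encodes a secreted matrix protein and is a target of Yap, stood at 29.4, 22.5 and 21.2 CPM in CONVD pools 1, 2 and 3 and 38.2, 34.9 and 39.9 CPM in Exi pools 1, 2 and 3 and was likewise called under each setting (log2 fold change -0.65, standard error 0.09, adjusted p = 2.4e-04). For *ier2*, a nuclear early response gene, the levels were 26.5, 17.8 and 18.9 CPM in CONVD pools 1, 2 and 3 and 32.4, 31.3 and 39.5 CPM in Exi pools 1, 2 and 3 (log2 fold change -0.75, standard error 0.11, adjusted p = 0.0012). The call was lost in edgeR with the 6 libraries alone (adjusted p = 0.21), but not in DESeq2 on the same libraries.

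*egr1*, the most widely used marker gene of the Egr family, stood at 176, 139.9 and 146 CPM in CONVD pools 1, 2 and 3 and 297, 272 and 336 CPM in Exi pools 1, 2 and 3. The groups did not overlap, and the mean levels of 154 ± 19.3 and 302 ± 32.3 CPM (SD, n = 3 pools each) differed by 1.96-fold (log2 fold change -0.97, standard error 0.15, adjusted p = 0.013). *npas4a* encodes a factor that is induced by calcium in neurons. It stood at 72.9, 59.8 and 65.8 CPM in CONVD pools 1, 2 and 3 and 163, 111 and 146 CPM in Exi pools 1, 2 and 3, a 2.13-fold difference (log2 fold change -1.09, standard error 0.16, adjusted p = 0.013). The calls of *egr1* and *npas4a* were each lost without CONVD 2, CONVD 3, Exi 1 or Exi 3 (adjusted p 0.064 to 0.12). With the 12 WT libraries edgeR called neither *egr1* (adjusted p = 0.10) nor *npas4a* (adjusted p = 0.099). *npas4a* was not called by edgeR with the 6 libraries alone either (adjusted p = 0.15). The other called early genes were *klf2b*, a Krüppel-like factor, *egr3*, *nr4a1*, an orphan nuclear receptor, and *IER2 (1 of 2)*, with log2 fold changes of -0.64, -0.55, -0.49 and -0.46. Their calls were lost without Exi 3, and for *klf2b*, *egr3* and *IER2 (1 of 2)* also without CONVD 2, for *egr3*, *nr4a1* and *IER2 (1 of 2)* also without Exi 1, and for *egr3* and *IER2 (1 of 2)* also without CONVD 3 (adjusted p 0.050 to 0.33). Leaving out a pool left between 5 (without Exi 3) and 13 called members of the list, and the 12 WT libraries gave 6. Of the 31 estimates 27 were below 0, while the median over all genes tested was -0.0042. Among the rest, *ier5l*, *srfa* and *nr4a2a* had estimates of 0.03, 0.04 and 0.14. Their 95% intervals were -0.11 to 0.16, -0.24 to 0.31 and -0.11 to 0.38.

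Of 18 genes tested that dampen MAP kinase and cytokine signaling, 4 were called lower in CONVD larvae, with none higher and a list median of -0.22. *dusp1*, the phosphatase that inactivates p38 and Jun kinases, stood at 48.1, 38.2 and 48.3 CPM in CONVD pools 1, 2 and 3 and 114, 72.8 and 108 CPM in Exi pools 1, 2 and 3. The CONVD pools reached less than the lowest Exi pool, and the difference was 2.21-fold (log2 fold change -1.14, standard error 0.15, adjusted p = 0.0038). *socs3a*, an inhibitor of cytokine receptors that signal through Stat3, has 2 entries. Under ENSDARG00000025428 it stood at 9.36, 5.13 and 8.31 CPM in CONVD pools 1, 2 and 3 and 23.6, 14.8 and 22.5 CPM in Exi pools 1, 2 and 3 (log2 fold change -1.48, standard error 0.25, adjusted p = 0.018). Under ENSDARG00000104400 it stood at 10.12, 5.34 and 9.66 CPM in CONVD pools 1, 2 and 3 and 22.2, 11.7 and 20.6 CPM in Exi pools 1, 2 and 3 and was not called (log2 fold change -1.19, 95% interval -1.78 to -0.59, adjusted p = 0.16). *socs1a*, which inhibits Janus kinases, stood at 7.83, 5.92 and 5.83 CPM in CONVD pools 1, 2 and 3 and 15.8, 9.17 and 11.4 CPM in Exi pools 1, 2 and 3 (log2 fold change -0.92, standard error 0.17, adjusted p = 0.011). *dusp5*, which acts on ERK in the nucleus, had a log2 fold change of -0.47 (adjusted p = 0.049). The second *socs3a* entry was called without Exi 2 (adjusted p = 0.021) and by DESeq2 on the 18 libraries (adjusted p = 0.045). The *dusp1* call held with each pool left out, but not in edgeR with the 12 WT libraries (adjusted p = 0.050) or the 6 libraries alone (adjusted p = 0.30). Those of the first *socs3a* entry, *socs1a* and *dusp5* were each lost without CONVD 2, CONVD 3, Exi 1 or Exi 3, and that of *dusp5* also without CONVD 1 (adjusted p 0.050 to 0.38). With the 12 WT libraries edgeR called neither the first *socs3a* entry (adjusted p = 0.18) nor *dusp5* (adjusted p = 0.185). With the 6 libraries alone edgeR called no member of the list. DESeq2 on the same 6 libraries kept the calls of *dusp1*, the first *socs3a* entry and *socs1a*, but not that of *dusp5* (adjusted p = 0.135). Of the 18 estimates of the list 15 were below 0. The close relative *socs3b* gave an estimate of -0.03 (95% interval -0.19 to 0.14) and *tnfaip3*, which ends NF-κB signaling, one of 0.19 (-0.09 to 0.47).

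Among genes of NF-κB signaling and inflammation, 3 of 29 tested were called, with a list median of -0.05. The estimates ran from -1.22 to 2.05, and the gene with the highest one was not called. The cyclooxygenases *ptgs2a* and *ptgs2b*, which carry out the first step of prostaglandin synthesis and are inducible early genes themselves, were both lower in CONVD. *ptgs2b* stood at 4.93, 4.59 and 3.89 CPM in CONVD pools 1, 2 and 3 and 11.06, 10.15 and 9.97 CPM in Exi pools 1, 2 and 3, a 2.33-fold difference (log2 fold change -1.22, standard error 0.13, adjusted p = 2.8e-06). *ptgs2a* stood at 9.70, 8.14 and 10.7 CPM in CONVD pools 1, 2 and 3 and 18.7, 21.6 and 18.4 CPM in Exi pools 1, 2 and 3, a 2.06-fold difference (log2 fold change -1.04, standard error 0.15, adjusted p = 6.8e-04). These 2 calls held under every setting tried. *nfkbiaa*, the inhibitor IκBα and a direct NF-κB target, was called although its pools overlapped. It stood at 18.8, 14.6 and 14.4 CPM in CONVD pools 1, 2 and 3 and 29.1, 17.7 and 24.2 CPM in Exi pools 1, 2 and 3 (log2 fold change -0.60, standard error 0.12, adjusted p = 0.013). The call was lost without CONVD 2, CONVD 3, Exi 1 or Exi 3 (adjusted p 0.12 to 0.21). It was lost also in edgeR with the 12 WT libraries (adjusted p = 0.136) and after thinning to the smallest total (adjusted p = 0.072). With the 6 libraries alone neither edgeR (adjusted p = 0.385) nor DESeq2 (adjusted p = 0.061) called *nfkbiaa*. Inflammatory cytokines were close to the limit of detection. For *il1b* the level was 1.14 ± 0.245 CPM in CONVD and 1.44 ± 0.684 CPM in Exi larvae (SD, n = 3 pools each; 95% interval of the log2 fold change -1.07 to 0.46), and for *saa*, the serum amyloid gene, 0.695 ± 0.177 and 0.472 ± 0.319 CPM (95% interval -0.58 to 1.44). The genes *tnfa*, *il6* and *tlr2* had too few reads to be tested. *tnfa* had 3, 2 and 4 reads in CONVD pools 1, 2 and 3 and 2, 1 and 4 in Exi pools 1, 2 and 3. *tlr2* had 4, 3 and 2 against 0, 2 and 2, and *il6* 1, 3 and 1 against 0, 2 and 0.

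No member of the Toll-like receptor and Myd88 pathway was called among 18 tested, and the list median was -0.02. *myd88*, the adapter of most Toll-like receptors, stood at 4.42, 5.80 and 4.32 CPM in CONVD pools 1, 2 and 3 and 5.59, 5.01 and 6.02 CPM in Exi pools 1, 2 and 3, and the groups overlapped (log2 fold change -0.18, 95% interval -0.51 to 0.14, adjusted p = 0.88). Of the C/EBP factors, which act beside AP1 in inflammation and metabolism, 0 of 6 were called. *cebpb* came nearest, at 24.5, 16.9 and 23.4 CPM in CONVD pools 1, 2 and 3 and 39.2, 40.2 and 45.98 CPM in Exi pools 1, 2 and 3. Its pools did not overlap, but the adjusted p of 0.063 missed the threshold (log2 fold change -0.99, 95% interval -1.39 to -0.58). It was called with the 6 libraries alone by edgeR (adjusted p = 0.027) and by DESeq2 (adjusted p = 2.0e-09), and by DESeq2 on the 18 libraries (adjusted p = 0.0041). For *cebpd* the estimate was -0.41 (95% interval -0.80 to -0.02, adjusted p = 0.68).

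*epgn*, which encodes epigen, a ligand of the epidermal growth factor receptor, stood at 6.47, 5.17 and 5.40 CPM in CONVD pools 1, 2 and 3 and 10.4, 10.9 and 14.8 CPM in Exi pools 1, 2 and 3, a 2.197-fold difference that was called under every setting tried (log2 fold change -1.14, standard error 0.14, adjusted p = 2.2e-05). *hbegfa*, which encodes another ligand of the receptor, stood at 13.4, 12.7 and 13.1 CPM in CONVD pools 1, 2 and 3 and 20.2, 19.2 and 20.8 CPM in Exi pools 1, 2 and 3 (log2 fold change -0.62, standard error 0.12, adjusted p = 0.013). *ERRFI1 (1 of 2)*, named after an inhibitor of the receptor, had a log2 fold change of -0.52 (adjusted p = 0.024). The calls of the latter pair were each lost without CONVD 2, CONVD 3, Exi 1 or Exi 3, and that of *ERRFI1 (1 of 2)* also without CONVD 1 (adjusted p 0.077 to 0.36). After thinning to the smallest total neither *hbegfa* (adjusted p = 0.18) nor *ERRFI1 (1 of 2)* (adjusted p = 0.70) was called. edgeR did not call *ERRFI1 (1 of 2)* with the 12 WT libraries (adjusted p = 0.13) or the 6 libraries alone (adjusted p = 0.21), nor did DESeq2 on the same 6 (adjusted p = 0.12). These 3 genes belong to no list and are set together here after their values were seen.

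Metabolic and clock genes called lower in CONVD were few. *cry1bb*, a light-responsive cryptochrome of the clock, was the 1 called member of 48 clock genes tested, whose median was -0.05. It stood at 97.8, 77.2 and 86.2 CPM in CONVD pools 1, 2 and 3 and 172, 124 and 170.2 CPM in Exi pools 1, 2 and 3, a 1.80-fold difference without overlap (log2 fold change -0.85, standard error 0.11, adjusted p = 0.0010). With the 6 libraries alone *cry1bb* was not called by edgeR (adjusted p = 0.23) but was called by DESeq2. *nr1d1*, which represses clock and lipid genes, gave an estimate of -0.32 (95% interval -0.55 to -0.08, adjusted p = 0.45). Of 35 genes induced by glucocorticoids or fasting, *g6pca.2*, a glucose-6-phosphatase that releases glucose, and *sgk1*, a kinase induced by glucocorticoids, were called. *g6pca.2* stood at 114, 113 and 122 CPM in CONVD pools 1, 2 and 3 and 219, 157 and 222 CPM in Exi pools 1, 2 and 3 (log2 fold change -0.78, standard error 0.14, adjusted p = 0.044). *sgk1* stood at 68.1, 62.3 and 67.5 CPM in CONVD pools 1, 2 and 3 and 102, 79.2 and 103 CPM in Exi pools 1, 2 and 3 (log2 fold change -0.53, standard error 0.09, adjusted p = 0.013). Both calls were lost without CONVD 1, CONVD 2, CONVD 3, Exi 1 or Exi 3, each in turn (adjusted p 0.061 to 0.24). That of *g6pca.2* was lost also without GF 1, GF 2 or GF 3 (adjusted p 0.065 to 0.078). With the 12 WT libraries edgeR called neither *g6pca.2* (adjusted p = 0.136) nor *sgk1* (adjusted p = 0.077). Of the lipid genes, *elovl6l*, a fatty acid elongase, stood at 14.4, 12.02 and 12.6 CPM in CONVD pools 1, 2 and 3 and 19.7, 18.7 and 19.4 CPM in Exi pools 1, 2 and 3 (log2 fold change -0.58, standard error 0.11, adjusted p = 0.0091). Its call was lost without CONVD 2, CONVD 3, Exi 1 or Exi 3 (adjusted p 0.055 to 0.15). *stard14*, which encodes a lipid-binding START-domain protein, stood at 19.3, 18.9 and 19.4 CPM in CONVD pools 1, 2 and 3 and 26.6, 30.7 and 29.3 CPM in Exi pools 1, 2 and 3 and was called under each setting (log2 fold change -0.59, standard error 0.09, adjusted p = 3.0e-04). *nocta*, which encodes nocturnin, had a log2 fold change of -0.58 (adjusted p = 0.011), and its call was lost without CONVD 2, CONVD 3, Exi 1 or Exi 3 (adjusted p 0.084 to 0.14). edgeR did not call *nocta* with the 12 WT libraries (adjusted p = 0.10) or with the 6 libraries alone (adjusted p = 0.24). For *angptl4*, an inhibitor of lipoprotein lipase, the levels of 61.5 ± 3.39 and 60.6 ± 2.12 CPM (SD, n = 3 pools each) gave a 95% interval of -0.15 to 0.20.

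Genes of the liver serum and cytochrome P450 lists had mostly small estimated differences, most of them below 0, and few were called. *ttr*, which encodes the thyroid hormone carrier transthyretin, stood at 27.2, 23.6 and 24.7 CPM in CONVD pools 1, 2 and 3 and 33.7, 34.1 and 35.9 CPM in Exi pools 1, 2 and 3, a 1.39-fold difference without overlap (log2 fold change -0.47, standard error 0.09, adjusted p = 0.013). *vtnb*, a vitronectin, stood at 17.2, 14.9 and 15.4 CPM in CONVD pools 1, 2 and 3 and 20.2, 22.9 and 24.7 CPM in Exi pools 1, 2 and 3 (log2 fold change -0.53, standard error 0.10, adjusted p = 0.0065). These were the 2 called genes of 42 liver serum proteins tested, and 37 of the 42 estimates were below 0, with a median of -0.30. Of 47 cytochrome P450 genes of families 2, 3 and 4, which oxidize lipids and foreign compounds, 4 were called and 41 of the estimates were below 0, with a median of -0.23. *cyp2aa8* stood at 2.55, 1.38 and 1.89 CPM in CONVD pools 1, 2 and 3 and 6.13, 3.30 and 4.29 CPM in Exi pools 1, 2 and 3 (log2 fold change -1.31, standard error 0.26, adjusted p = 0.013). *cyp4v8* had a log2 fold change of -0.64, *cyp2p9* of -0.49 and *cyp4v7* of -0.46. Reads of the related *cyp4v7* and *cyp4v8* may not be fully separated. All 6 calls were lost without Exi 3 and without CONVD 2 (adjusted p 0.054 to 0.45 over all pools that ended a call). Those of *ttr*, *cyp2aa8* and *cyp4v8* were lost also without Exi 1, those of *ttr* and *cyp2aa8* also without CONVD 3, and that of *cyp2p9* without CONVD 1 or Exi 2 as well. After thinning to the smallest total *ttr*, *cyp4v8*, *cyp2aa8* and *cyp2p9* were not called (adjusted p 0.063 to 0.40). With the 12 WT libraries edgeR called none of the 6 genes (adjusted p 0.076 to 0.10). With the 6 libraries alone edgeR called neither *cyp2aa8* (adjusted p = 0.054) nor *cyp2p9* (adjusted p = 0.14). DESeq2 on the same libraries did not call *cyp2p9* (adjusted p = 0.11).

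Abundant liver transcripts were not called. *tfa*, transferrin, stood at 579, 455 and 547 CPM in CONVD pools 1, 2 and 3 and 704, 747 and 894 CPM in Exi pools 1, 2 and 3 (95% interval of the log2 fold change -1.06 to -0.08, adjusted p = 0.61), and *fabp10a*, the fatty acid binding protein of hepatocytes, at 168 ± 37.9 against 205 ± 31.3 CPM (SD, n = 3 pools each; 95% interval -0.61 to 0.03). The summed level of the 42 liver serum genes was 2286 to 2839 CPM over the CONVD pools, 2891 to 3469.9 CPM over the Exi pools and 2182 to 2908 CPM over the GF pools. Among 29 complement genes 24 estimates were below 0 (median -0.26), among 27 bile acid genes 27 (median -0.18), and among 55 enterocyte genes 44 (median -0.20). In each of these 3 lists 0 genes were called. The median over all genes tested was -0.0042. Genes of a list need not vary independently, so these counts are not counts of separate observations. Without Exi 3 no gene of the liver serum or cytochrome P450 list was called lower. In RNA of whole larvae fewer cells of a type and less RNA per cell cannot be told apart.

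**Figure D3:**
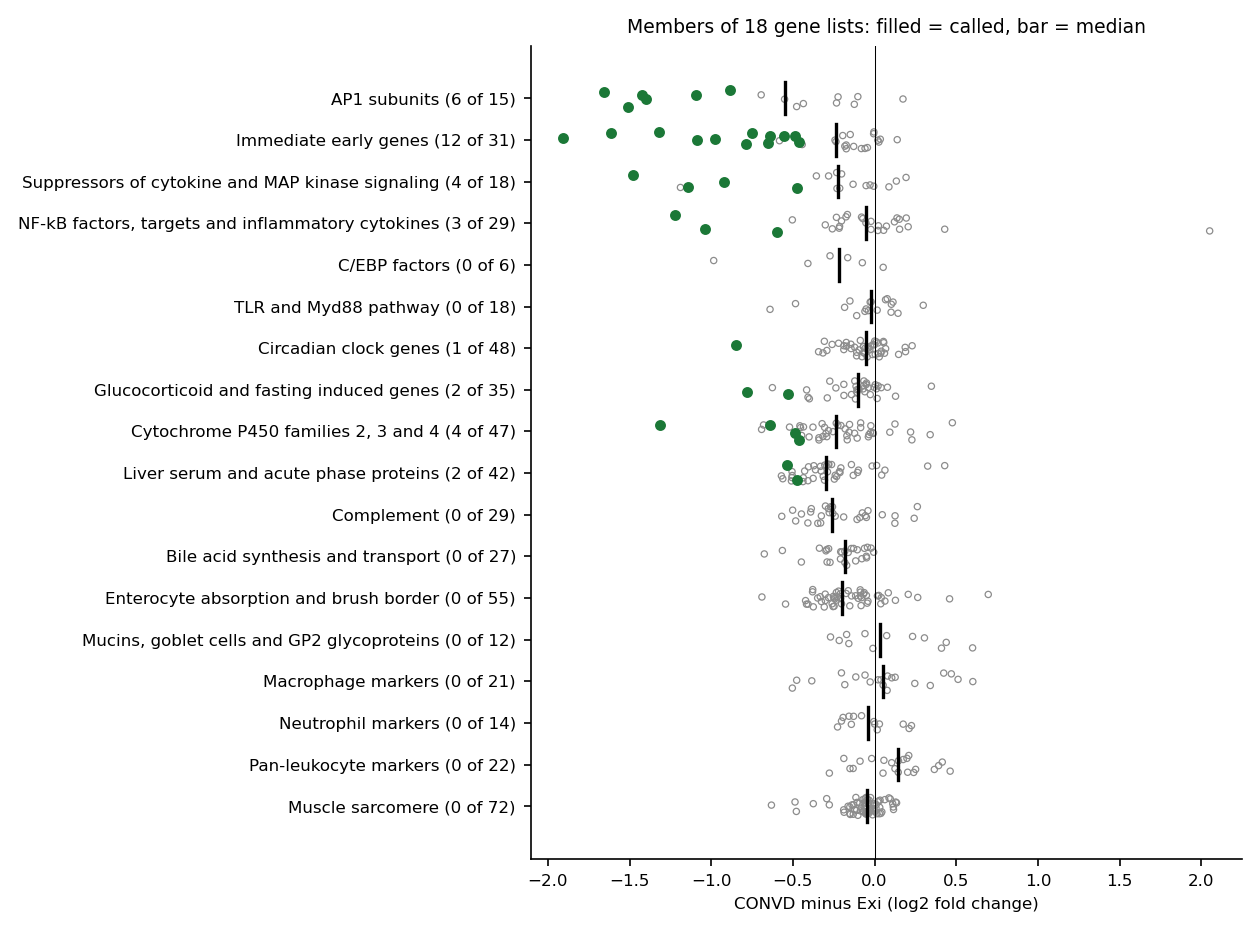
Log2 fold change, CONVD minus Exi (x axis), of the tested members of 18 gene lists (rows), with the number called of the number tested in parentheses. Filled points are called genes, open points genes not called, and bars list medians. The AP1 subunits have the lowest median (-0.55), the medians of the liver lists and the cytochrome P450 genes lie below 0, and those of the macrophage and neutrophil markers close to 0.

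Further genes called lower in CONVD belonged to none of the groups above. *ponzr4*, a zebrafish gene of the Plac8 family, stood at 1.19, 1.42 and 2.16 CPM in CONVD pools 1, 2 and 3 and 6.57, 3.91 and 3.88 CPM in Exi pools 1, 2 and 3 (log2 fold change -1.53, standard error 0.29, adjusted p = 0.013). Its call was lost without CONVD 1, CONVD 2 or Exi 1 (adjusted p 0.062 to 0.19) and after thinning to the smallest total (adjusted p = 0.18). *foxq1a*, a forkhead factor that responds to ligands of the aryl hydrocarbon receptor in zebrafish, was the 1 called gene of 12 on that list, at 5.19, 3.00 and 4.53 CPM in CONVD pools 1, 2 and 3 and 6.68, 9.91 and 8.52 CPM in Exi pools 1, 2 and 3 (log2 fold change -1.03, standard error 0.21, adjusted p = 0.025). Its call was lost without CONVD 2, CONVD 3, Exi 2 or Exi 3 (adjusted p 0.069 to 0.23). edgeR did not call *foxq1a* with the 12 WT libraries (adjusted p = 0.21), with the 6 libraries alone (adjusted p = 0.052) or after thinning (adjusted p = 0.11). The classical target of that receptor, *cyp1a*, gave -0.30 (95% interval -0.50 to -0.10). *gpr186*, which the gene table names *gpr3*, encodes a receptor that raises cyclic AMP without a ligand in mammals. It stood at 16.8, 19.1 and 17.0 CPM in CONVD pools 1, 2 and 3 and 32.3, 24.9 and 27.8 CPM in Exi pools 1, 2 and 3 and was called under every setting (log2 fold change -0.68, standard error 0.10, adjusted p = 3.5e-04). *plk2b*, a polo-like kinase and target of p53, had a log2 fold change of -0.47 (adjusted p = 0.0070). Its call was lost without CONVD 2 or Exi 1 (adjusted p 0.093 to 0.11) and in edgeR with the 12 WT libraries (adjusted p = 0.0503). *ezh1*, a histone methyltransferase of the Polycomb group, had a log2 fold change of -0.50 (adjusted p = 0.0038), and its call was lost without CONVD 2 (adjusted p = 0.11).

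Without a described function here, *si:dkey-221j11.3* stood at 5.96, 5.38 and 6.53 CPM in CONVD pools 1, 2 and 3 and 19.7, 10.15 and 15.9 CPM in Exi pools 1, 2 and 3 (log2 fold change -1.38, standard error 0.20, adjusted p = 0.0014). *si:dkey-79d12.5* stood at 6.55, 7.43 and 8.48 CPM in CONVD pools 1, 2 and 3 and 19.8, 11.0 and 17.0 CPM in Exi pools 1, 2 and 3 (log2 fold change -1.09, standard error 0.15, adjusted p = 3.7e-04). Both kept the call with each pool left out. *si:dkey-79d12.5* lost it in edgeR with the 6 libraries alone (adjusted p = 0.055), but not in DESeq2 on the same libraries. *sb:cb1058*, with a log2 fold change of -0.68 (adjusted p = 2.0e-04), was called under every setting tried. *si:dkey-11f4.14*, *si:dkey-17e16.17* (*bicdl2l* in the gene table), *btr04*, a tripartite motif gene, *chia.6*, a chitinase, *pim2*, a survival kinase, *pm20d1.1*, which makes N-acyl amino acids in mammals, and *cbsa*, which encodes cystathionine beta-synthase, make up the rest. Their log2 fold changes were -1.06, -0.91, -0.88, -0.60, -0.58, -0.44 and -0.38. Each of these 7 calls was lost without Exi 3 and without at least 3 of the other 5 pools (adjusted p 0.055 to 0.61), and *chia.6* and *cbsa* lost theirs with any pool left out.

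The 4 genes called higher in CONVD share no list. *aimp2*, a scaffold of the multi-tRNA synthetase complex, stood at 49.5, 47.6 and 47.2 CPM in CONVD pools 1, 2 and 3 and 34.4, 36.7 and 38.4 CPM in Exi pools 1, 2 and 3. The CONVD pools lay close together above the highest Exi pool, a 1.31-fold difference (log2 fold change 0.39, standard error 0.08, adjusted p = 0.011). *RELN*, named after the secreted matrix protein reelin, stood at 49.1, 42.5 and 42.9 CPM in CONVD pools 1, 2 and 3 and 33.2, 32.9 and 35.7 CPM in Exi pools 1, 2 and 3 (log2 fold change 0.39, standard error 0.08, adjusted p = 0.021). *tmem11*, which shapes the inner membrane of mitochondria in other animals, stood at 27.5, 22.4 and 20.5 CPM in CONVD pools 1, 2 and 3 and 17.7, 16.8 and 17.2 CPM in Exi pools 1, 2 and 3 (log2 fold change 0.42, standard error 0.10, adjusted p = 0.049). *kcnj1a.2*, a potassium channel, stood at 6.98, 7.05 and 6.42 CPM in CONVD pools 1, 2 and 3 and 2.3003, 5.503 and 3.67 CPM in Exi pools 1, 2 and 3 (log2 fold change 0.86, standard error 0.19, adjusted p = 0.038). With the 12 WT libraries, and without Exi 1, 0 genes were called higher in CONVD, where the adjusted p of *aimp2* was 0.062 and 0.10. The call of *aimp2* was lost also without CONVD 2, that of *RELN* without CONVD 1, Exi 2 or Exi 3, that of *tmem11* without CONVD 1, CONVD 2, Exi 2 or Exi 3, and that of *kcnj1a.2* without CONVD 1, CONVD 2, CONVD 3 or Exi 3 (adjusted p 0.059 to 0.33).

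The GF pools show on which side of the uncolonized level each group lay. The contrasts CONVD minus GF and Exi minus GF use the same GF pools, with 1.63% of all genes called in the first (1.04% lower and 0.586% higher in CONVD) and 0.757% in the second (0.484% lower and 0.274% higher in Exi), so their values are set side by side for single genes. In *fosl1a* the GF pools stood at 28.6, 29.6 and 25.7 CPM, above both colonized groups, and the log2 fold change was -3.41 for CONVD minus GF and -2.01 for Exi minus GF (adjusted p = 5.6e-13 and 2.4e-08). The Exi level thus lay between the GF and CONVD levels. The same order of means with both contrasts called held in *jdp2b* (-2.25 and -0.82), *batf* (-1.78 and -0.68), *epgn* (-1.72 and -0.59), *sik1* (-1.20 and -0.41), *nr4a1* (-1.06 and -0.57), *cry1bb* (-1.37 and -0.53), *nocta* (-1.52 and -0.94), *sgk1* (-1.20 and -0.67), *stard14* (-0.997 and -0.41), *ERRFI1 (1 of 2)* (-1.34 and -0.82) and *si:dkey-79d12.5* (-2.49 and -1.40). These genes were already called lower in CONVD than in Exi. With Exi also called below GF, the order follows from the calls and is not separate support for them. The call of Exi minus GF was lost for *epgn* without Exi 1, Exi 2, GF 2 or GF 3 (adjusted p 0.077 to 0.12), for *cry1bb* without GF 1 or GF 2 (adjusted p 0.074 to 0.093) and for *stard14* without Exi 1 (adjusted p = 0.058). For *sik1* it was lost without Exi 2 or GF 1, where the estimate fell under 1.3-fold.

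In a second set of genes the Exi pools stood near the GF pools and the CONVD pools below. GF pools 1, 2 and 3 stood at 111, 102 and 91.2 CPM for *dusp1*, at 12.3, 11.09 and 10.9 CPM for *ptgs2b* and at 14.0, 19.8 and 24.9 CPM for *socs3a* (ENSDARG00000025428). CONVD minus GF was called in each of these 3 genes (log2 fold change -1.19, -1.37 and -1.40, adjusted p = 3.3e-04, 2.6e-08 and 0.0059), and Exi minus GF was not (adjusted p = 0.96, 0.80 and 0.96). The *socs3a* call against GF was lost with the 12 WT libraries (adjusted p = 0.050). A p that misses the threshold does not show that Exi and GF larvae had the same level.

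In a further set the GF pools stood beside the CONVD pools or between the groups. In GF pools 1, 2 and 3 *npas4a* stood at 89.6, 84.4 and 74.5 CPM, *egr1* at 166, 240.0 and 191 CPM and *junbb* at 42.1, 57.5 and 52.5 CPM. Neither contrast against GF was called in these 3 genes (adjusted p for Exi minus GF 0.059, 0.11 and 0.33). *ttr* stood at 24.8, 23.1 and 30.3 CPM in GF pools and was called higher in Exi than in GF (log2 fold change 0.41, adjusted p = 0.036), a call lost without any 1 of the 3 Exi pools or GF 1 or GF 2 (adjusted p 0.068 to 0.23). *cbsa* was called higher in Exi than in GF as well (0.38, adjusted p = 0.029), and its CONVD and GF means were 19.9 and 20.0 CPM. This call was lost without Exi 1, Exi 3 or any 1 GF pool (adjusted p 0.061 to 0.18). The genes of these 3 sets were picked by their values as examples, and the plot of called genes by pool shows each of them.

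**Figure D4:**
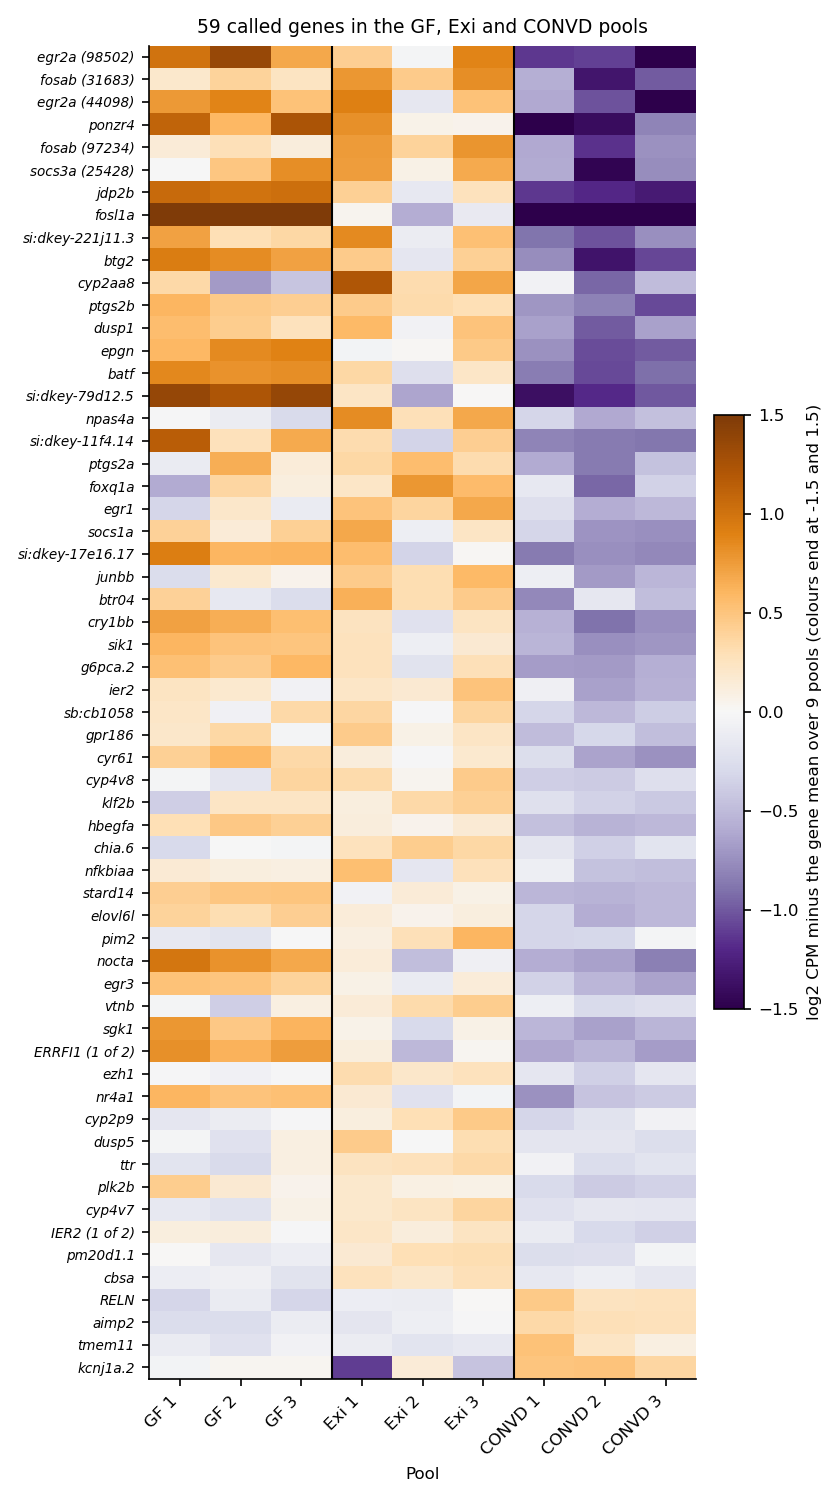
Log2 CPM of 59 called genes (rows, from the lowest to the highest log2 fold change) in the 9 GF, Exi and CONVD pools (columns), as the difference from the gene's mean over the 9 pools. Brown is above and purple below that mean, and colours end at -1.5 and 1.5. Most rows are purple in the CONVD columns, while the GF columns differ between rows, from the highest level in *fosl1a* to near the CONVD level in *ttr*.

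Of the macrophage, neutrophil and pan-leukocyte markers tested, none was called. Of 21 macrophage markers tested 0 were called (median 0.05), and their summed level was 146 to 161 CPM over the CONVD pools and 149.96 to 157 CPM over the Exi pools. The defining macrophage gene *mpeg1.1* stood at 3.84 ± 0.838 and 3.17 ± 0.664 CPM (SD, n = 3 pools each), with a 95% interval of -0.16 to 0.65, and *mpeg1.2* and *irg1l* gave -0.20 (-0.49 to 0.09) and -0.50 (-0.82 to -0.19). The 14 neutrophil markers summed to 376 to 445 CPM in CONVD and 409 to 422 CPM in Exi pools (median -0.04), and the 22 pan-leukocyte markers to 229.7 to 245 and 213 to 228 CPM (median 0.15). The 2 entries of *zgc:153932*, a gene related to the mucosal glycoprotein GP2, lay higher in each CONVD pool than in any Exi pool, as did 5.72% of all genes tested, without passing the test. Their log2 fold changes were 0.60 (95% interval 0.27 to 0.94, adjusted p = 0.19) for ENSDARG00000052779 and 0.41 (0.15 to 0.67, adjusted p = 0.29) for ENSDARG00000074642. In all, 32 of the 45 lists held no called gene, with medians between -0.26 (complement) and 0.15 (pan-leukocyte markers).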

How the data were processed

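The authors made 18 libraries from total RNA of whole zebrafish larvae, in 6 groups of 3 pools with 15 larvae each, with a kit that keeps no strand. The libraries were sequenced as single reads of 50 nucleotides and mapped to GRCz10. Bowtie2, SAMtools and DESeq appear in the submitters' processing notes without a version. Each library's deposited values are read counts of 31388 genes. In 9 libraries an unnamed last entry of the deposited column is not whole, so that column is classed with expected counts, although each gene holds a whole count. The entry was dropped and nothing was rounded.

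R 4.3.3 with edgeR 4.0.16 and DESeq2 1.42.0 was used for the tests, and Python 3.11.15 with pandas 2.3.3, numpy 2.4.6 and matplotlib 3.10.9 for summaries and plots. The filter was edgeR's filterByExpr (minimum count 10, minimum total 15) and the scaling TMM. One quasi-likelihood model (robust, a coefficient for each group, 12 residual degrees of freedom) covered the 18 libraries and gave every contrast. Intervals are 95% intervals of the log2 fold change. CPM are not scaled by gene length, so levels are compared within a gene. Pools of a group differed by more than counting error (chi-square divided by its degrees of freedom 2.80 to 5.21 in CONVD and 2.62 to 4.07 in Exi), so none were merged.

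The comparison, its members and the 45 gene lists were chosen with earlier results of these data known. The lists hold 1623 genes, of which 1530 were tested. Of their 1354 names, 1186 matched a symbol in the files, 54 matched only in a gene name table and 114 did not match. Genes were named if they were among the 15 largest called changes in a direction (average log2 CPM 1 or more, pools not overlapping), among the 4 called members of a list with the lowest p, or named in the text of the study. The other 21 called genes, and uncalled genes given as examples, were added after their values were seen. The values of 1 called gene are not reported here.

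The tests were also run on simulated counts, whose levels and spread were taken from the fit to these data. Alternatives were RLE size factors, DESeq2 on 18 and on 6 libraries, edgeR on 6 and on the 12 WT libraries, no filter, no fold threshold, a replicate block, thinning to the smallest total, and each pool left out in turn. The authors' own fold changes were not used here, nor was a genome.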

Additional observations from a re-analysis of the deposited data

How the results depend on the processing

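With 60 genes called (4 higher and 56 lower in CONVD), RLE size factors gave 57, no filter on low counts 58 and no fold threshold 62. DESeq2 called 78 genes on the 18 libraries, 7 of them higher and 71 lower in CONVD, and 85 on the 6 libraries alone, 9 higher and 76 lower. edgeR called 39 on the 6 libraries alone (5 higher, 34 lower), 27 on the 12 WT libraries (0 higher, 27 lower; 1246 genes at an unadjusted p below 0.05, against 1659 with 18 libraries) and 34 after thinning to the smallest total (3 higher, 31 lower). Why the fits differ was not tested. Leaving out 1 pool gave 24 to 78 genes, with 0 to 5 higher and 23 to 73 lower. With the replicate number as a block, 90 genes were called, 8 higher and 82 lower, of which 55 were among the 60. The other 5 of the 60 were *btr04*, *egr1*, *g6pca.2*, *junbb* and *nr4a1*. Same-numbered CONVD and Exi pools deviated together with correlations of 0.067, 0.055 and 0.11 across genes, each the highest for its pool, which is a hint from the data and not part of the design. Of the called genes 13 were called under each of the 17 settings and 0 changed direction. Among the uncalled genes *angptl4* ranged from -0.0209 (without CONVD 3, where it turned below 0) to 0.0601 with a pool left out, and *il1b* from -0.5063 to 0.0497 (without Exi 2, where it turned above 0). Depth limits the genes with few reads most, and 2 of the 3 Exi libraries were shallower than each CONVD library.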

Other observations

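Uncalled genes with large estimates were mostly those high in a single Exi pool. Of the 23 lower ones, 6 carry the symbol *otud4* and 7 a symbol that begins with si:dkeyp-3b12, and reads of such near-identical entries can be divided between them. The *otud4* entry ENSDARG00000103357 stood at 4.25, 6.80 and 5.72 CPM in CONVD pools 1, 2 and 3 and 54.1, 7.22 and 10.9 CPM in Exi pools 1, 2 and 3, and the GF pools 1, 2 and 3 stood at 23.7, 8.19 and 4.66 CPM. *si:dkey-153m14.1* stood at 32.9, 41.9 and 32.3 CPM in CONVD pools 1, 2 and 3 and 288, 31.9 and 62.5 CPM in Exi pools 1, 2 and 3, and at 123, 39.3 and 24.4 CPM in GF pools 1, 2 and 3. Apart from Exi 1, the Exi pools of both entries were thus closer to the CONVD pools. These genes were chosen after their values were seen, and the reason for the level of Exi 1 was not tested.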
